A study of Mus musculus with 2 samples.

Results

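Amino acid transporters were compared between mammary epithelial cells of Cuzd1-null mice and of their heterozygous littermates. The set was defined by gene symbol: probe sets with a single symbol of the families Slc1a, Slc3a, Slc6a, Slc7a, Slc36a, Slc38a or Slc43a followed by a number. It held 118 probe sets for 58 genes, of 45101 probe sets and 18193 named genes on the array. Symbols ending in a letter, such as Slc6a20a, fall outside it, and a few of its members carry other substrates than amino acids.

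The null mice were homozygous for a null allele of Cuzd1 made by homologous recombination in embryonic stem cells. The littermates were heterozygous for it, so every animal carried at least 1 null allele and the 2 groups include no wild-type mice. Both genotypes came from repeated backcrosses to C57BL/6, and their ages were not given in the labels. On day 18 of pregnancy the inguinal glands were removed, digested with hyaluronidase and collagenase, and spun and washed to give epithelial cells, with no sort recorded. RNA of 5 mice per genotype was pooled and each pool was read on 1 array, so each difference below is a difference between 2 pools, and the number of arrays limits its precision.

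An alveolar cell makes milk protein from amino acids that it takes up across its basolateral membrane. Most of these carriers belong to solute carrier families with distinct driving forces: sodium-coupled uptake (SLC1, SLC38, SLC6), exchange of one amino acid for another by a light chain bound to a heavy chain (SLC7 with SLC3), proton coupling (SLC36) and facilitated diffusion (SLC43). Several of the genes are also known to be induced by ATF4, the transcription factor of the amino acid starvation response, and some of the proteins sit in the lysosome, where amino acid supply is reported to the growth kinase complex mTORC1.

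Values are MAS5 signal intensities. Signals under the median of all non-control probe sets on an array, 32.5 units for null and 34.2 units for heterozygous cells, are mostly background and were set to that floor. The brightest probe set, by its mean over both arrays, stood for a gene, and the gene counted as measured where either array exceeded its floor. Cuzd1 itself read 34.0 units in null and 32.4 units in heterozygous cells, at about the floor, and so does not check the genotype labels. Of the 58 transporter genes, 31 were measured, 26 of them on both arrays. The other 27 were at the floor on both, among them Slc3a1, the heavy chain of the renal cystine carrier, Slc7a8, a light chain for neutral amino acids, Slc43a1, Slc38a4 and Slc38a5. Slc7a8 lay close below it, at 26.8 units in null and 34.0 units in heterozygous cells. Of 10 luminal markers of the labelled cell type, 9 were above the floor on both arrays and Prom1 was at it on both. Krt18 read 10003 units in null and 8581 units in heterozygous cells, and Wap, which went the other way, 13117 and 15403 units in the same order.

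None of the 31 measured transporters was 2-fold apart. At least 2-fold higher in the null pool were 0 of 31, where 1.12% of all 11893 measured genes were, and at least 2-fold lower were 0 of 31, against 1.03% of all measured genes. At either share, fewer than 1 such gene would fall among 31, so the counts of 0 do not set the transporters apart. In pooled bulk RNA, fewer cells of a type and less RNA per cell cannot be told apart. The log2 ratio of null over heterozygous had a median of -0.07 over the 31 genes (quartiles -0.24 and 0.11), with 12 above and 19 below 0. Over all measured genes the median was 0.03, with quartiles of -0.18 and 0.23, and 54.0% of them lay above 0. No replicate array exists, so each ratio is set beside the robust SD (from the median absolute deviation) of the ratios among genes of similar signal, a spread that holds real differences as well as noise and is no replicate error. More than 1 robust SD above the median of such genes lay 3 of 31 transporters, where 15.7% of all measured genes did. More than 1 robust SD below it lay 7 of 31, where 16.9% of all measured genes did.

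**Figure D1:**
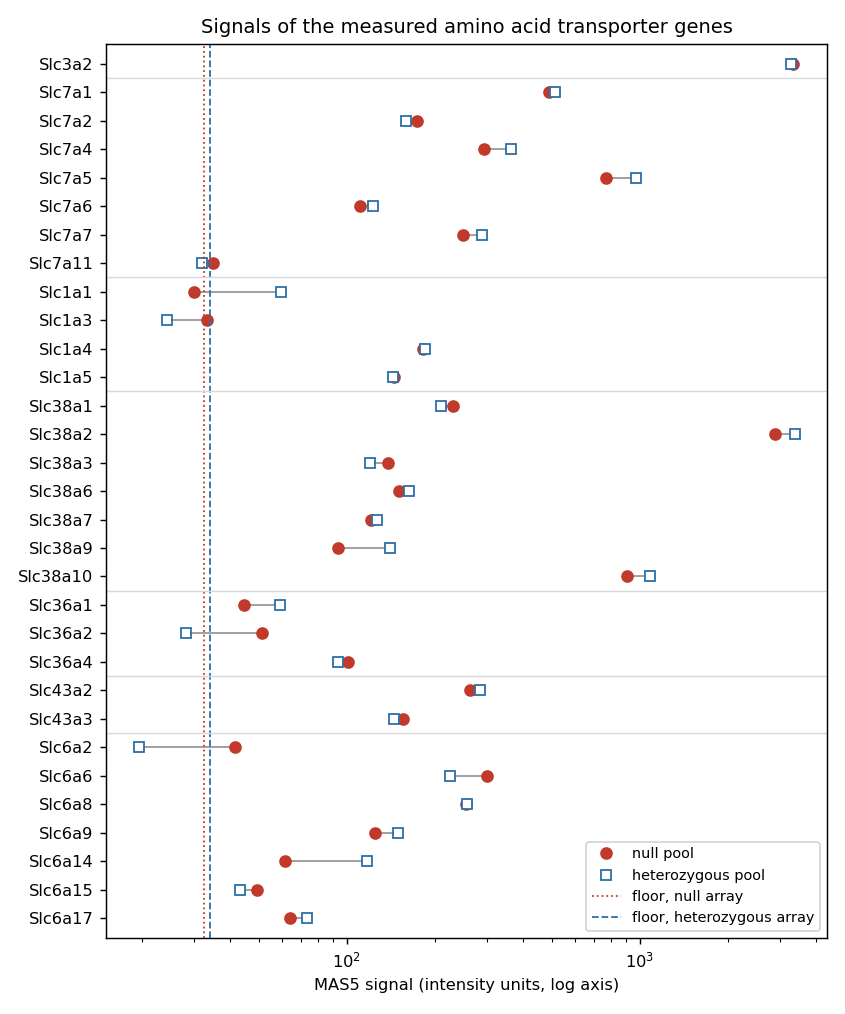
MAS5 signal (intensity units, log axis) of the 31 measured transporter genes, with the null pool as filled circles and the heterozygous pool as open squares, 1 array each; vertical lines mark the floors of 32.5 and 34.2 units. Most pairs of symbols touch or lie close, and the widest gaps are at Slc6a2, Slc1a1, Slc6a14 and Slc36a2. Levels of different genes come from different probes and are not comparable.

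The directions of these small ratios rest on the scaling of the arrays. The 9 hybridization control probe sets, which labs usually add in equal amounts, stood at -0.23 in median log2 ratio, and rescaling to them moved the median of the transporters to 0.16 and that of all measured genes to 0.26. On that scale 23 of the 31 transporters lay above 0, where 79.5% of all measured genes did. Rescaling moves every gene by the same amount, so the transporter median lay below that of all genes by 0.10 on either scale. With the mean over measured probe sets, the medians were 0.00 for transporters and 0.02 for all genes. Ratios below are on the deposited scale, and one between -0.23 and 0 turns positive after rescaling.

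Among transporters above the floor on both arrays, Slc6a14 had the ratio furthest from 0. It is a sodium- and chloride-coupled carrier of neutral and cationic amino acids. Its signal was 61.6 units in null and 117 units in heterozygous cells, 1.91-fold lower, a log2 ratio of -0.93 where the robust SD at similar signal was 0.42. Its second probe set read 41.2 and 48.2 units in the same order, a ratio of -0.22. Both probe sets were thus lower in the null pool, by unequal amounts, and the second would lie at about 0 after rescaling. Slc1a1 and Slc6a2, each at the floor on 1 array, had larger unfloored ratios, of -0.99 and 1.09. Besides Slc6a14, 1 member was at least 1.5-fold lower, together 2 of 31 where 4.93% of all measured genes were. With the mean over measured probe sets, an alternative chosen after seeing the data for this fold, 0 of 31 were, against 4.37% of measured genes. By that mean Slc6a14 had -0.58 and Slc1a1 -0.21. The other member was Slc1a1, a carrier of glutamate and cysteine, at 30.0 units in null cells, below the floor, and 59.6 units in heterozygous cells, at least 1.83-fold lower. A dimmer probe set of Slc1a1 pointed the other way, with 46.8 units in null cells and 23.8 units, below the floor, in heterozygous cells, at least 1.37-fold higher. No direction is therefore given for Slc1a1. At least 1.5-fold higher was 1 of 31, where 5.83% of all measured genes were. This was Slc36a2, a proton-coupled carrier of glycine and proline, at 51.5 units in null cells and 28.2 units in heterozygous cells, below the floor, at least 1.51-fold higher at its sole probe set.

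**Figure D2:**
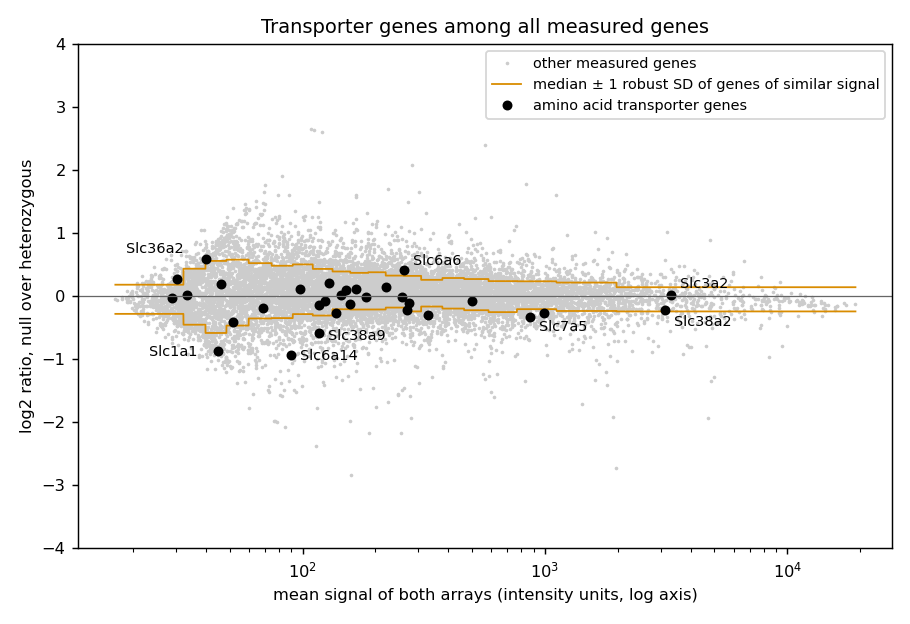
Log2 ratio of null over heterozygous against the mean signal of both arrays (intensity units, log axis), with transporter genes in black, other measured genes in grey and the median ± 1 robust SD of genes of similar signal as lines. Transporters lie within the cloud of all measured genes, and Slc6a14 (-0.93) and Slc1a1 (-0.87) are the lowest of them.

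Slc3a2, the heavy chain (4F2hc, CD98) that brings the SLC7 light chains to the plasma membrane, read 3335 units in null and 3292 units in heterozygous cells, a log2 ratio of 0.02. Slc7a5, the LAT1 light chain that pairs with it and imports large neutral amino acids such as leucine, read 770 units in null and 968 units in heterozygous cells. Its ratio was -0.33, at a robust SD of 0.22. The heavy chain was therefore nearly equal in the pools while LAT1 was 1.26-fold lower in null cells, and after rescaling they had ratios of 0.25 and -0.10. The remaining light chains lay closer to 0. Slc7a7 (y+LAT1), which exchanges cationic for neutral amino acids and is also known from macrophages, had a ratio of -0.22 and -0.15 at its second probe set. Slc7a6, its relative y+LAT2, had -0.15 and 0.21 at the dimmer one. Slc7a11, the cystine and glutamate exchanger xCT, was at 34.8 units in null cells and, below the floor, 31.9 units in heterozygous cells.

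Cationic amino acid carriers of the SLC7 family supply arginine and lysine. Slc7a1, the CAT1 carrier, read 490 units in null and 515 units in heterozygous cells, a ratio of -0.07, and its second measured probe set had -0.12. Slc7a2, the CAT2 carrier, had 0.12 at its brightest probe set (173 units in null and 159 units in heterozygous cells), while its 2 dimmer measured probe sets were at the floor in null cells with ratios of -0.69 and -0.39. Slc7a4, a relative of these carriers, was lower in the null pool at every measured probe set, at 295 units in null against 362 units in heterozygous cells for the brightest. Its ratios were -0.30, -0.61 and -0.27, the last at the floor in null cells, and the robust SD at the brightest was 0.21. Slc7a3 was at the floor on both arrays.

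In the SLC1 family, the exchangers of small neutral amino acids had ratios close to 0 at their brightest probe sets. Slc1a4 (ASCT1), which carries alanine, serine and cysteine, read 182 units in null and 185 units in heterozygous cells, a ratio of -0.02, with 0.03 and -0.25 at its other probe sets. Slc1a5 (ASCT2), a glutamine exchanger, read 145 and 143 units in the same order, a ratio of 0.02. Both lie inside the robust SDs of 0.29 and 0.30 among genes of similar signal, and after rescaling they were 0.21 and 0.25. The glutamate carrier Slc1a3 exceeded the floor on the null array alone and by less than 1 unit (33.4 units), and its ratio of -0.04 takes its sign from the unequal floors. Slc1a2, Slc1a6 and Slc1a7, glutamate carriers known from neural tissue, were at the floor on both arrays.

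The sodium-coupled SLC38 carriers take up glutamine, alanine and serine. Slc38a2 (SNAT2), which cells raise when amino acids run short, read 2902 units in null and 3378 units in heterozygous cells. Its ratio was -0.22, at a robust SD of 0.19. Genes of similar signal had a median of -0.05, so Slc38a2 lay within 1 robust SD of it. Its other probe sets had -0.06 and, at the floor in heterozygous cells, 0.28. Slc38a1 (SNAT1) read 231 units in null and 210 units in heterozygous cells, a ratio of 0.14, with 0.31 at the second probe set. At the brightest probe set these glutamine importers had ratios of opposite sign, each by less than 1.2-fold. Slc38a1 too lay within 1 robust SD of the median of genes of similar signal. After rescaling, Slc38a2 had 0.01 and Slc38a1 had 0.37, so the opposite signs rest on the scaling. Slc38a3, Slc38a6 and Slc38a7, the last a lysosomal exporter of glutamine and asparagine, had ratios of 0.21, -0.12 and -0.07. Slc38a10 had ratios below 0 at all 6 measured probe sets, between -0.67 and -0.05, and read 901 units in null and 1082 units in heterozygous cells at the brightest. Its ratio there was -0.26, at a robust SD of 0.22.

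Slc38a9 is the lysosomal carrier that senses arginine and activates the Rag GTPases upstream of mTORC1. It read 93.5 units in null and 140 units in heterozygous cells at its brightest probe set, just under 1.5-fold lower, a ratio of -0.58 at a robust SD of 0.37. Its 4 other measured probe sets did not share one direction, with ratios of -0.43, -0.11, 0.09 and 0.32, so the lower signal rests on part of the probes. Slc36a1, a lysosomal proton-coupled carrier of small amino acids, read 44.5 units in null and 58.9 units in heterozygous cells, a ratio of -0.40 at a robust SD of 0.52. Slc36a4, its high-affinity relative, had 101 and 93.4 units in the same order, a ratio of 0.11. Slc36a3 was at the floor on both arrays.

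Of the SLC43 facilitators, Slc43a2 (LAT4), which lets branched-chain amino acids and methionine out of the cell, read 264 units in null and 285 units in heterozygous cells, a ratio of -0.11. Its second probe set went the other way, with 193 units in null and 118 units in heterozygous cells, a ratio of 0.71. Slc43a3, a carrier of purine nucleobases, had 0.10. In the SLC6 family, Slc6a6, the taurine carrier, was higher in the null pool at both measured probe sets. It read 300 units in null and 225 units in heterozygous cells at the brightest, a ratio of 0.41 at a robust SD of 0.28, and 116 and 76.1 units in the same order at the other, a ratio of 0.61. Slc6a8, the creatine carrier, was equal in the pools at 256 and 258 units. Slc6a9, the glycine carrier GlyT1, read 124 units in null and 150 units in heterozygous cells, a ratio of -0.27, but its dimmer probe set had 0.78. The neutral amino acid carriers Slc6a15 and Slc6a17, known from brain, had 0.18 and -0.19. Slc6a2, the noradrenaline carrier, read 41.4 units in null cells and 19.5 units, below the floor, in heterozygous cells, at least 1.21-fold higher. Of the 18 SLC6 genes, 11 were at the floor on both arrays, among them the gut and kidney carriers Slc6a18 and Slc6a19 and the GABA, glycine and monoamine carriers Slc6a11, Slc6a13, Slc6a5, Slc6a3 and Slc6a4.

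**Figure D3:**
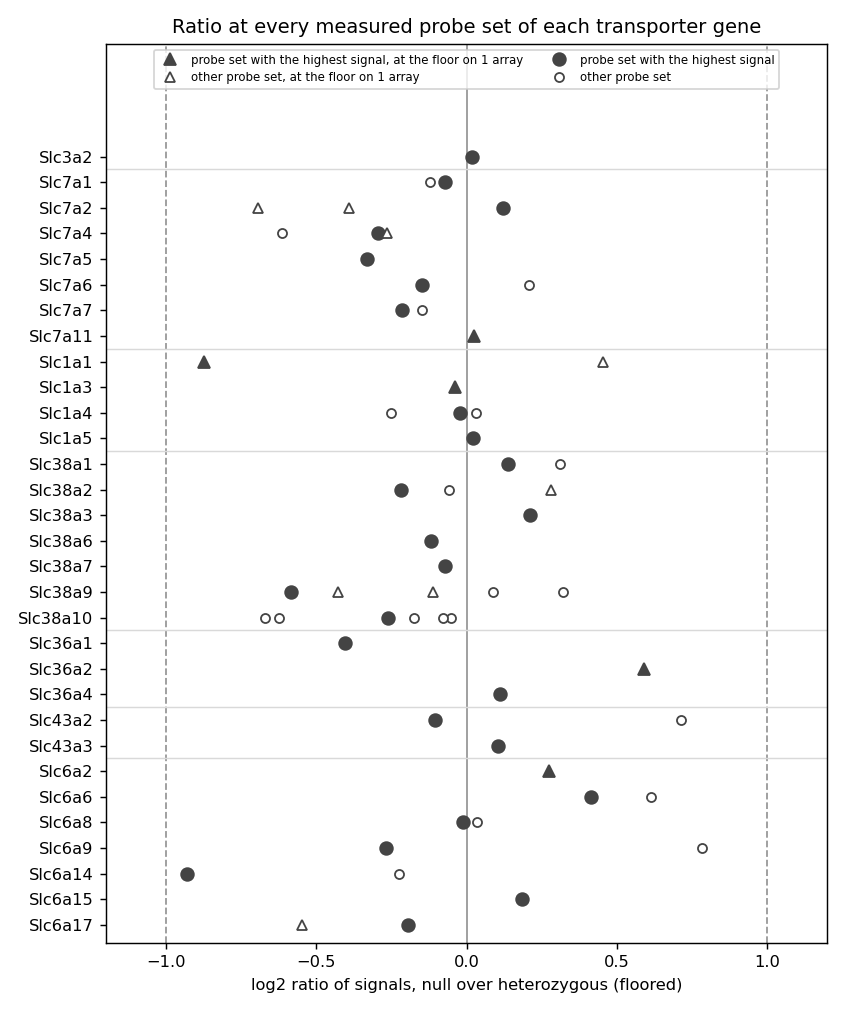
Log2 ratio of null over heterozygous at each measured probe set, by gene, with the probe set of highest signal filled, other probe sets open, and triangles where 1 array was at its floor; dashed lines mark 2-fold. No symbol reaches a dashed line, and Slc6a9, Slc43a2, Slc38a9, Slc7a2 and Slc1a1 have probe sets on either side of 0.

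Probe sets of the same transporter often disagreed. Of 17 genes with several measured probe sets, 8 had all of them on the same side of 0 and 9 did not. In 8 of the 17 the probe sets spanned more than 0.5 on the log2 scale. The genes with every measured probe set below 0 were Slc6a14, Slc38a10, Slc7a4, Slc7a1, Slc7a7 and Slc6a17, and those with every one above 0 were Slc6a6 and Slc38a1. Probe sets of 1 gene read the same 2 pools, so agreement among them is no replicate of the animals.

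Genes that other arms of amino acid handling use were taken from lists that were chosen with earlier results of these data known. The response to amino acid shortage through ATF4 had a median log2 ratio of -0.22 over 22 measured members. Of these, 8 lay above and 14 below 0, where 54.0% of all measured genes lay above 0. After rescaling, 11 lay above and 11 below 0, where 79.5% of all measured genes lay above 0. At least 2-fold lower were 2 of 22, against 1.03% of all measured genes, and at least 2-fold higher were 0, against 1.12%. Cth, which makes cysteine, read 48.2 units in null and 139 units in heterozygous cells, 2.89-fold lower. Chac1, which degrades glutathione, read 49.6 and 127 units in the same order, 2.55-fold lower. Their log2 ratios were -1.53 and -1.35, at robust SDs of 0.39 and 0.42. Both null signals lay not far above the floor of 32.5 units, and list genes are given at the brightest probe set alone. Atf4 itself had a ratio of -0.20 (3148 units in null and 3610 units in heterozygous cells), Asns, asparagine synthetase, had -0.23, and Atf3, a stress-induced factor, had 0.38. After rescaling, Atf4 and Asns would lie at about 0, and Cth and Chac1 would stay over 2-fold lower.

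ATF4 binds, with a C/EBP partner, a composite element called CARE. The letters TGATGNAA were searched on both strands of RefSeq promoter windows (GRCm38.p6), which run from 250 bases before to 50 bases after each annotated start. Of the 31 measured transporters, 19 were in that table, with 29 windows. CARE letters were found in 4 of these 29 windows, which belong to 3 genes, in 5 of the 62 windows of all members in the table (8.06%), in 2.36% of the windows of all measured genes and in 3.97% of all 32851 windows. The 3 genes are shown because they are the measured transporters whose windows hold the element. Slc1a4 had a ratio of -0.02 and Slc7a7 of -0.22, while Slc7a11 was too near the floor for its ratio to be read. Each stretch lies on the minus strand and is written 5′ to 3′ along the gene, with CARE letters in capitals. It runs from 60 bases before the first match to 20 bases after the last, at chr3:50443633-50443739 for Slc7a11, chr11:20332690-20332777 for Slc1a4 and chr14:54417918-54418145 for Slc7a7.
Slc7a11: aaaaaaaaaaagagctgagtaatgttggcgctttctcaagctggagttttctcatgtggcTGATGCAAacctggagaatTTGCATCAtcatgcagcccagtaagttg
Slc1a4: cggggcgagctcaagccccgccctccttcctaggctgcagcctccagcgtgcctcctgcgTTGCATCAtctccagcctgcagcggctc
Slc7a7: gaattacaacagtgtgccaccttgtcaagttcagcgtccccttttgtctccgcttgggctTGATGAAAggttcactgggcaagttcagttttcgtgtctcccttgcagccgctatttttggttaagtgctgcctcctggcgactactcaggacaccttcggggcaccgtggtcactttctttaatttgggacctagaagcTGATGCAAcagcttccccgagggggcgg
In Slc7a11 the matches face each other, starting 66 and 47 bases before the start site. In Slc1a4 the match begins 4 bases before the start and crosses it. Slc7a7 has overlapping windows for its several starts, so its match next to 1 start counts in 2 of the 4 windows. The STAT5 element GAS (TTCNNNGAA) was found in 4 of the 29 windows of measured transporters and in the same number of the 62 windows of all members (6.45%), against 6.75% for measured genes and 8.30% of all windows. The NRF2 core ARE (TGACNNNGC) was found in 7 of 29 and in 11 of 62 (17.7%), against 14.3% for measured genes and 12.4% of all windows. Neither Slc6a14 nor Slc1a1 held any of the 3 motifs in its window. A match is a description of the letters and not a bound site.

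**Figure D4:**
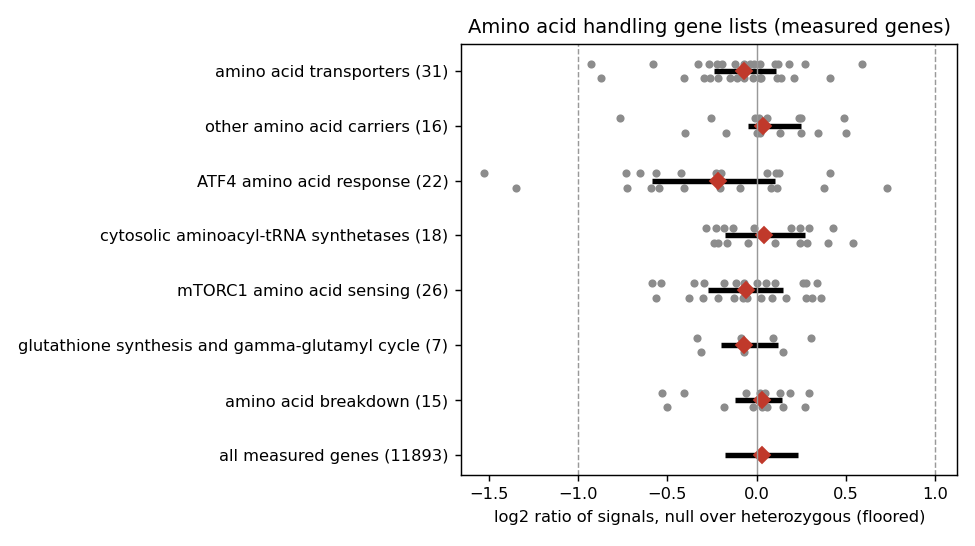
Log2 ratio of null over heterozygous for measured genes of each list (grey points), with the median as a diamond and the quartiles as a bar; all 11893 measured genes are shown by median and quartiles alone, and dashed lines mark 2-fold. The transporter median of -0.07 lies near 0, and the ATF4 list holds the 2 genes beyond the dashed lines.

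Other lists lay near the level of all measured genes, which had a median of 0.03 and 54.0% of ratios above 0. The mTORC1 sensing genes, which relay lysosomal amino acids, had a median of -0.06 over 26 members, 12 of them above 0. Castor1, a cytosolic arginine sensor, had the lowest ratio there, at -0.59 (97.0 units in null and 146 units in heterozygous cells). The cytosolic aminoacyl-tRNA synthetases, which load amino acids for translation, had 0.04 over 18 members, 9 of them above 0. Carriers of amino acids or peptides outside the 7 families had 0.04 over 16 members, among them the peptide carrier Slc15a2 with 0.13. Genes of glutathione synthesis and the gamma-glutamyl cycle had -0.07 over 7 and genes on the amino acid breakdown list 0.03 over 15. The breakdown list also holds Glul, glutamine synthetase, which had its lowest ratio, at -0.53. In none of these 5 lists was a measured member 2-fold apart. After rescaling, 19 of 26 mTORC1 sensing genes and 16 of 18 synthetases lay above 0, where 79.5% of all measured genes did.

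Markers of other cell types differed between the pools. Of all measured genes, 54.0% had a ratio above 0 as deposited and 79.5% after rescaling to the hybridization controls. Above 0 were 9 of 10 fibroblast markers (summed signal 14087 units in null and 10933 units in heterozygous cells), 10 of 10 endothelial markers (3044 and 2162 units), 8 of 10 macrophage markers (9959 and 8768 units) and all 6 measured B and plasma cell markers (2975 and 418 units). Ighm alone held 2252 and 172 units of the B and plasma sum, and Cd79a, Ms4a1 and Mzb1 were at the floor in heterozygous cells. Below 0 were all 7 measured adipocyte markers (18719 and 22978 units) and 6 of 9 myoepithelial markers (20714 and 22695 units). The adipocyte sum was mostly Fabp4 (6169 and 6829 units), Lpl (6554 and 8977 units) and Cd36 (5750 and 6844 units). Adipoq (29.2 and 66.6 units) and Lep (9.04 and 39.4 units) were at the floor in null cells. Luminal markers split 5 above and 4 below, at 78017 and 79519 units, and T and NK markers 2 above and 3 below, at 390 and 348 units, all in the same order. After rescaling, 3 of 9 myoepithelial and 5 of 7 adipocyte markers lay below 0, so the myoepithelial list leaned the other way, while the fibroblast, endothelial and B cell counts were as before and 10 of 10 macrophage markers lay above 0. Luminal markers then split 8 above and 1 below, and T and NK markers 4 above and 1 below. No measured marker was at 0. Prom1, Cidec, Cd79b, Cd3e, Cd3d and Cd4 were at the floor on both arrays, and their signals are included in the sums. The part of these cells in the transporter ratios was not tested.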

How the data were processed

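Signal intensities were deposited by the authors as 1 linear value per probe set and array, and the submitters' processing notes name the MAS5 algorithm in Affymetrix Expression Console version 1. With 2% of values trimmed at each end, both arrays averaged 150.0 units, as under a global scaling factor per array. Such scaling assumes equal total signal in both pools. No genome build was given in the sources used here. Gene symbols came from the platform annotation (34945 non-control probe sets with 1 symbol, 932 with several, 9160 not listed) and were updated through Entrez IDs in RefSeq. The floor, the probe set per gene, the log2 ratio and the 2-fold rule of size were computed here in Python 3.11.15 with pandas 2.3.3. The robust SD was taken over 20 bins of signal. With 1 array per genotype no test was run. The ratio procedure was checked on simulated data, with log2 differences of 2, in either direction, planted in brighter genes above both floors. That check does not cover smaller ratios or genes near the floor.

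Named genes were all measured members, with signals for those at least 1.5-fold apart and the 3 brightest of each family. Signals of other members, and the promoters, which no member at least 1.5-fold apart carries with CARE letters, were added after values were seen. The members, lists and alternatives were chosen with earlier results of these data known. Older names of list genes were matched through RefSeq synonyms. Alternatives changed the floor, the scaling, the probe set, the filter, the fold and the members.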

Additional observations from a re-analysis of the deposited data

How the results depend on the processing

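The counts of transporters 2-fold apart, 0 higher and 0 lower, stayed at 0 with a shared floor, a floor at the 75th percentile, quantile normalization, rescaling to the hybridization controls, the mean over measured probe sets, genes above both floors only, and without the carriers of other substrates Slc6a2, Slc6a8 and Slc43a3 (added after the data were seen). Across those settings, between 0.34% and 2.94% of all measured genes were 2-fold higher and between 0.50% and 1.03% were 2-fold lower. With no floor, 1 was higher, where 3.11% of all measured genes were, and 0 were lower, against 3.09%. The 1 was Slc6a2 (ratio 1.09), by the construction of that setting, since its heterozygous signal is below the floor. A 1.5-fold rule gave 1 higher and 2 lower, against 5.83% and 4.93% of all measured genes. With the mean over measured probe sets (added after the data were seen) it gave 1 higher and 0 lower, against 5.02% and 4.37%. Slc6a14 then had -0.58. The median ratio of -0.07 ran from -0.09 to 0.00 except after rescaling to the hybridization controls, where it was 0.16 by construction. The mean over probe sets moved 6 of 31 genes by more than 1 robust SD: Slc1a1 to -0.21, Slc38a2 to 0.00, Slc38a9 to -0.14, Slc43a2 to 0.30, Slc6a9 to 0.26 and Slc7a2 to -0.32. Rescaling turned the sign of 11 of 31 genes. No paired analysis was possible because each genotype has 1 array. With 1 array per genotype, ratios of genes near the floor are the least precise.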
